A study of Rattus norvegicus with 20 samples.

Results

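The genes described here set the threshold of the mitochondrial route to programmed cell death. They are the survival genes Bcl2, Bcl2l1 (Bcl-xL), Bcl2l2 (Bcl-w) and Mcl1, the death genes Bax, Bak1, Bad and Bid, and Casp9, the 1 caspase among them. A probe set was taken as a member when the platform annotation gave it to 1 of these 9 genes and to no other gene. That rule found 15 of the 31042 probe sets that are not controls. They belonged to 8 of the 9 genes, out of 14217 genes with a probe set of their own on the array. The 1 Bax probe set is also annotated to another gene, so no Bax value is given. The probe sets of Bcl2l1, Bcl2l2, Mcl1, Bid and Casp9 number more than 1 each, while Bcl2, Bad and Bak1 have 1 each.

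In the textbook account of this pathway, the survival proteins hold Bax and Bak1 inactive at the outer mitochondrial membrane. BH3-only proteins such as Bad and Bid sense stress and release that block, after which Bax and Bak1 form pores and cytochrome c leaves the mitochondrion. Cytochrome c joins Apaf1 in the apoptosome, which activates caspase-9, and caspase-9 in turn activates the executioner caspases. In mice, Bcl2l1 and Mcl1 are both needed for neurons to survive during brain development.

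RNA came from 20 male Sprague Dawley rats aged 20 weeks, with 1 array per rat and 10 rats in each group. The first group was given the volatile anaesthetic isoflurane at 2% in oxygen for 15 minutes. That concentration is 1.4 MAC, a unit of anaesthetic potency. The second group was given pure oxygen for the same time, and brains of both groups were taken after 6 hours of recovery. All samples are labelled brain cortex. All levels below are log2 array signals (MAS5), a relative scale on which a difference of 1 is a doubling. They can be compared between arrays for 1 probe set and not between probe sets.

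The tissue label went with the cortical markers on only 9 of the 20 arrays. The Purkinje cell gene Pcp2 lay above 12 on the log2 scale on 11 arrays, here called Pcp2-high, and below it on 9, here called Pcp2-low. The Pcp2-high arrays are isoflurane replicates 1, 3, 7, 8 and 9 and oxygen replicates 5 to 10. The Pcp2-low arrays are isoflurane replicates 2, 4, 5, 6 and 10 and oxygen replicates 1 to 4. The summed linear signal of 5 cerebellar markers ran from 38678 to 52239 on Pcp2-high arrays and from 145 to 4871 on Pcp2-low arrays. The 4 cortical markers found, out of 5 listed, summed to between 81 and 380 on Pcp2-high arrays and to between 1327 and 2279 on Pcp2-low arrays. The 4 striatal markers found, out of 5, summed to 2451 to 4145 on Pcp2-high arrays and 4521 to 10157 on Pcp2-low arrays. The markers thus do not show the Pcp2-low tissue to be cortex alone. Isoflurane replicates 2, 4, 5 and 6 also stood apart from the other Pcp2-low arrays. Their cerebellar sum was 145 to 234, against 668 to 1567 on the oxygen arrays of that side. Their log2 ratio of 3' over 5' signal of the actin control, a sign of RNA integrity, was 2.30 to 2.86, against 1.21 to 1.98 on the oxygen arrays of that side. For the Gapdh control that log2 ratio was not raised, at 0.24 to 0.33 on these 4 arrays against 0.30 to 0.48 on those oxygen arrays. The 3'/5' ratio used as a covariate below is the mean of both controls. On isoflurane replicate 10 the cerebellar sum was 4871 and the actin log2 ratio 1.21. Many member results are therefore also given without those 4. Most pathway results between array sides are given over all 20 arrays only. In bulk tissue, fewer cells of a type and less RNA per cell cannot be told apart.

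Of the 15 member probe sets, 9 from 7 genes averaged over 6.62 on the log2 scale, which is the 40th percentile of all probe sets. These were tested within a fit of 18625 probe sets. The other 6, among them the only Bcl2 probe set, were below it. Between the Pcp2-high and the Pcp2-low arrays, 5 of the 9 differed in limma at an adjusted p under 0.05, where 60.8% of all tested probe sets did. Of the members, 3 were higher on the Pcp2-high arrays (36.0% of all tested) and 2 were lower (24.8%). The 3 are both Mcl1 probe sets and 1 of Bcl2l1, and the 2 belong to Casp9 and Bid. The median difference of the 9 was -0.01, beside 0.103 over all tested probe sets, so the members' share lay near that of the array as a whole. Without the 4 arrays it was again 5 of 9, where 53.2% of all tested probe sets passed, with Bad among the 5 in place of Bcl2l1. The cerebellar, cortical and other marker sums differ between the array sides too, and their part in these differences was not tested.

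For isoflurane against oxygen, none of the 9 passed the threshold in the limma model that holds the array side as a term, where 7.37% of all tested probe sets passed. At an unadjusted p under 0.05 the count was 4 of 9 members, where 27.1% of all tested probe sets passed. Of the 9 log2 changes, 7 were below zero, with a median of -0.15 beside 0.004 over all tested probe sets. The sign of the isoflurane difference was the same on both array sides for 4 of the 9, where 52.8% of all tested probe sets had 1 sign.

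**Figure D1:**
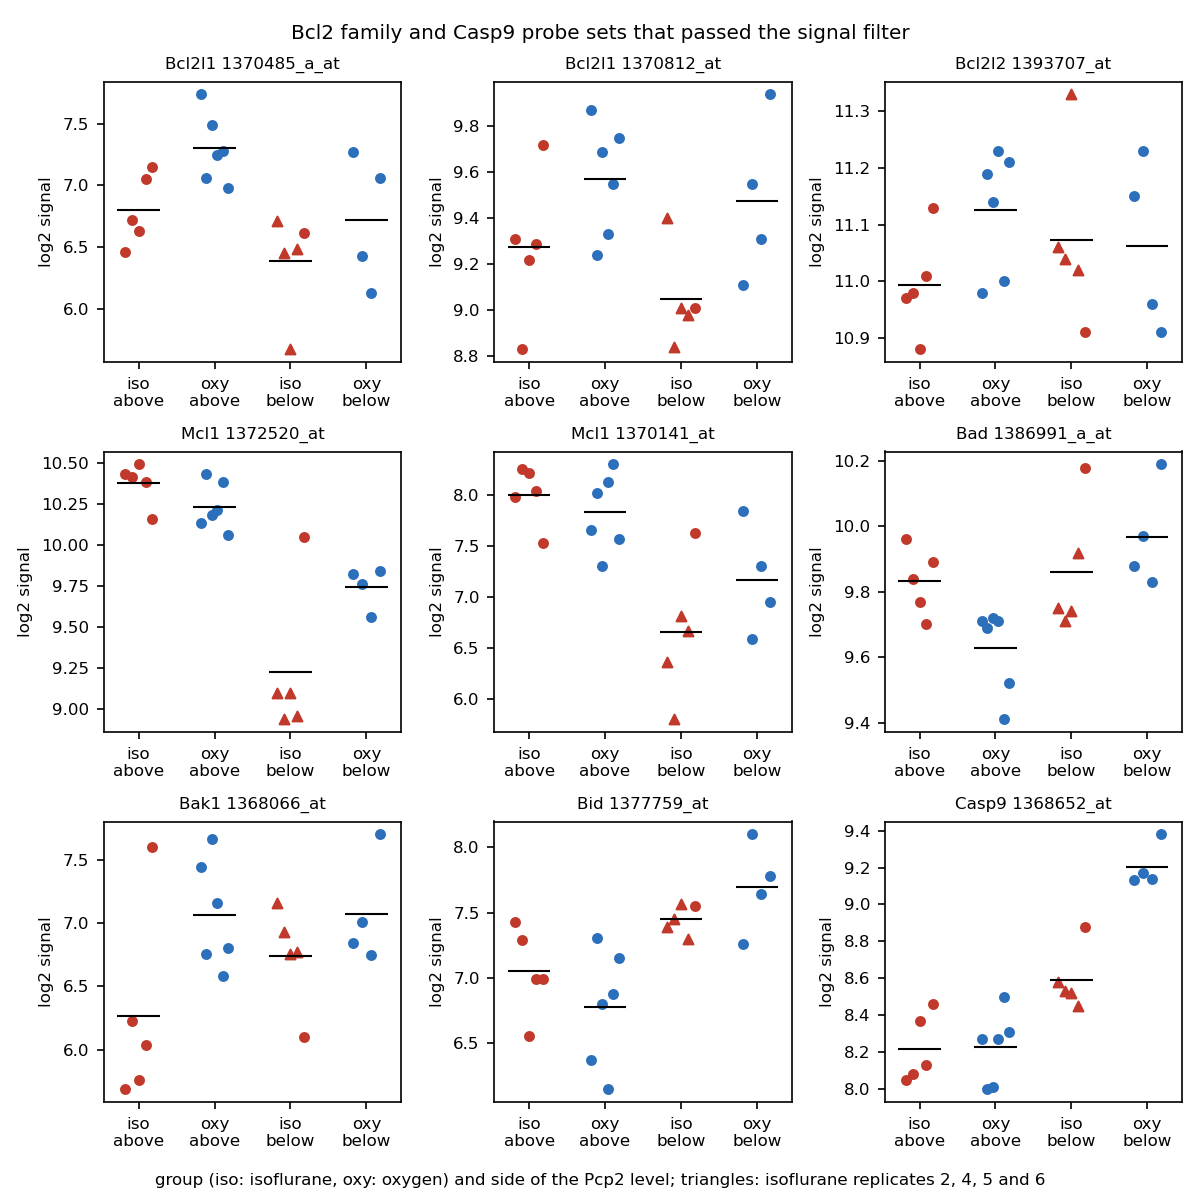
Log2 signal of the 9 tested member probe sets on all 20 arrays, by group (isoflurane left of oxygen) and array side (above is Pcp2-high, below is Pcp2-low), with 1 point per rat and a line at the mean of each group; triangles are isoflurane replicates 2, 4, 5 and 6. Both Mcl1 panels sit higher on the Pcp2-high arrays, while Casp9 sits lower there, and on Pcp2-low arrays it sits lower after isoflurane than after oxygen.

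Mcl1 is a short-lived survival protein that is replaced within hours. Among the tested probe sets of survival genes, those of Mcl1 differed most between the array sides. At probe set 1372520_at the isoflurane arrays read 10.43, 10.41, 10.49, 10.38 and 10.16 and the oxygen arrays 10.13, 10.43, 10.18, 10.21, 10.38 and 10.06 on the Pcp2-high side. On the Pcp2-low side the isoflurane arrays read 9.10, 8.94, 9.10, 8.96 and 10.05, the last being replicate 10, and the oxygen arrays 9.82, 9.76, 9.56 and 9.84. All 11 Pcp2-high arrays lay above all 9 Pcp2-low arrays, although isoflurane replicate 10 came within a narrow margin of the lowest Pcp2-high array. Mcl1 1372520_at was the only tested member probe set whose 2 sides did not overlap, as was the case for 18.8% of all tested probe sets. The difference was 0.82 ± 0.13 (SE, adjusted p = 1.62e-05), or 1.77-fold.

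The second Mcl1 probe set, 1370141_at, differed by 1.01 ± 0.21 (SE, adjusted p = 0.000364), with all 11 Pcp2-high arrays above the Pcp2-low mean. Its Pcp2-high arrays ran from 7.30 to 8.30 and its Pcp2-low arrays from 5.80 to 7.84, so the sides overlapped. The size of the Mcl1 difference turned on the 4 arrays. Without them it was 0.44 (adjusted p = 0.000219) at 1372520_at and 0.59 (adjusted p = 0.022) at 1370141_at. With the 3'/5' ratio as a covariate both were 0.40, with adjusted p = 0.00286 at 1372520_at and 0.0995 at 1370141_at.

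Neither Mcl1 probe set passed the isoflurane test. The changes were -0.15 ± 0.13 (95% interval -0.42 to 0.12, adjusted p = 0.474) at 1372520_at and -0.14 ± 0.21 (adjusted p = 0.713) at 1370141_at. The values had opposite signs on the 2 sides, at 0.14 and 0.17 on Pcp2-high arrays and -0.51 and -0.52 on Pcp2-low arrays. On the Pcp2-low side isoflurane replicates 2, 4, 5 and 6 read 8.94 to 9.10 at 1372520_at, below all 4 oxygen arrays, as did 16.7% of all tested probe sets, whereas replicate 10 read above them. Without those 4 arrays the Mcl1 changes were 0.18 and 0.24, and neither passed, nor did any other tested probe set (0% in limma, with 3016 at an unadjusted p under 0.05). The test of the difference between the sides gave 0.65 ± 0.22 (adjusted p = 0.0661) at 1372520_at. It passed at 0.86 (adjusted p = 0.000144) without isoflurane replicate 10, where 23.1% of all tested probe sets passed. Without isoflurane replicate 9 it passed at 0.71 (adjusted p = 0.0491), where 12.3% of all did. It also passed with array weights (0.79, adjusted p = 0.000505), where 31.2% of all tested probe sets passed. After median centring it passed at 0.90 (adjusted p = 0.015), where 20.9% of all did. Without the 4 arrays it was -0.17, with isoflurane replicate 10 the only isoflurane array left on the Pcp2-low side. With the 3'/5' ratio as a covariate it was 0.26 (adjusted p = 0.468), where 0.558% of all tested probe sets passed.

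As both Mcl1 probe sets were called higher on Pcp2-high arrays in the main fit, the sequence before the Mcl1 start is shown. It is RefSeq's 250 bases ahead of the annotated start in GRCr8, chr2:185907918-185908167 on the plus strand, with the GC box GGGCGG, on either strand, in capitals.
Mcl1: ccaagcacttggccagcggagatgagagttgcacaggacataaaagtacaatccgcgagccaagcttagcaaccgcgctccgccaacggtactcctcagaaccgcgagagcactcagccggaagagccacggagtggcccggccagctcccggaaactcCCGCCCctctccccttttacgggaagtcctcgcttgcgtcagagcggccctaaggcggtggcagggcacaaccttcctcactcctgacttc
The GC box was found 1 time, 91 bases before the start, and 30.5% of the 33469 rat windows of this length hold at least 1. No CCAAT box (CCAAT, in 34% of all windows), TATA box (TATAAA, in 12.9%), E-box (CACGTG, in 5.59%) or cAMP response element (TGACGTCA, in 1.59%) was found in the Mcl1 window on either strand.

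Bcl2l1 encodes Bcl-xL, the main survival protein of mature neurons. Its brightest probe set, 1370812_at, read 9.31, 8.83, 9.22, 9.29 and 9.72 after isoflurane and 9.87, 9.24, 9.69, 9.33, 9.55 and 9.75 after oxygen on Pcp2-high arrays. On Pcp2-low arrays the values were 9.40, 8.84, 9.01, 8.98 and 9.01 after isoflurane and 9.11, 9.55, 9.31 and 9.94 after oxygen. In all, 9 of 10 isoflurane arrays lay below the oxygen mean of their side, yet the groups overlapped on both sides. The isoflurane change was -0.36 ± 0.12 (SE, 95% interval -0.60 to -0.11), with an unadjusted p of 0.00711 and an adjusted p of 0.068 in limma. It passed without isoflurane replicate 9 (-0.42, adjusted p = 0.018) and without oxygen replicate 6 (-0.39, adjusted p = 0.0449). It was -0.30 on Pcp2-high arrays alone, -0.43 on Pcp2-low arrays alone and -0.34 without the 4 arrays, and none of the 3 passed.

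At the second tested Bcl2l1 probe set, 1370485_a_at, all 10 isoflurane arrays lay below the oxygen mean of their side. The isoflurane values ran from 6.46 to 7.15 and the oxygen values from 6.98 to 7.74 on Pcp2-high arrays, and they ran from 5.67 to 6.71 and from 6.13 to 7.27 on Pcp2-low arrays. The change was -0.43 ± 0.17 (SE, 95% interval -0.78 to -0.07, adjusted p = 0.113). It was -0.50 on Pcp2-high arrays alone and -0.34 on Pcp2-low arrays alone, and neither passed. It passed after quantile normalization (-0.54, adjusted p = 0.0481) and with array weights (-0.51, adjusted p = 0.0488). Both tested Bcl2l1 probe sets thus gave values of the same sign on each side, and the call depended on the setting.

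Bcl2l1 1370485_a_at was also higher on Pcp2-high arrays, by 0.50 ± 0.17 (SE, adjusted p = 0.0153), with 10 of 11 arrays above the Pcp2-low mean. Without the 4 arrays the value was 0.48 (adjusted p = 0.0533), and with the 3'/5' covariate 0.37 (adjusted p = 0.182). At 1370812_at the difference was 0.16 ± 0.12 (95% interval -0.09 to 0.41) and did not pass. The third Bcl2l1 probe set, 1369180_at, lay below the filter. It ran from 3.99 to 6.33 after isoflurane and from 4.13 to 5.77 after oxygen. With no filter its isoflurane change was 0.42 ± 0.29 (SE, adjusted p = 0.432), opposite in sign to those of the other Bcl2l1 probe sets, and it did not pass.

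Bcl2l2 encodes Bcl-w, a survival protein of the same fold. Its probe set 1393707_at varied least of the members, with values of 10.88 to 11.13 after isoflurane and 10.98 to 11.23 after oxygen on Pcp2-high arrays. On Pcp2-low arrays it ran from 10.91 to 11.33 after isoflurane and from 10.91 to 11.23 after oxygen. The difference between array sides was -0.01 ± 0.06 (SE, 95% interval -0.14 to 0.12), and the isoflurane change was -0.07 ± 0.06 (95% interval -0.20 to 0.06). The other Bcl2l2 probe set, 1369611_at, lay below the filter. On Pcp2-high arrays it read 6.67, 7.34, 6.76, 7.09 and 5.95 after isoflurane and 6.53, 6.45, 6.11, 7.18, 7.31 and 2.75 after oxygen. On Pcp2-low arrays the values were 2.35, 1.80, 4.71, 1.51 and 6.54 after isoflurane and 7.00, 1.22, 1.59 and 3.03 after oxygen. Apart from isoflurane replicates 5 and 10 and oxygen replicate 1, the Pcp2-low values ran from 1.22 to 3.03, near the bottom of the scale. With no filter its difference between the sides was 3.12 ± 0.74 (SE, adjusted p = 0.00149), which passed. Its isoflurane change was 0.46 ± 0.74 (adjusted p = 0.77), which did not. With no detection call, values this low cannot be told from background, so the values and that difference are given as a description.

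Bcl2, the gene the family is named after, had 1 probe set, 1387611_at, below the filter. Its values ran from 1.02 to 6.56 after isoflurane and from 3.28 to 6.19 after oxygen, and the groups overlapped on both sides. With no filter the isoflurane change was -0.03 ± 0.54 (SE) and the difference between sides 0.45 ± 0.55, and neither passed. The standard errors are several times those of the brighter members, so a moderate Bcl2 change could not be seen on these arrays.

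**Figure D2:**
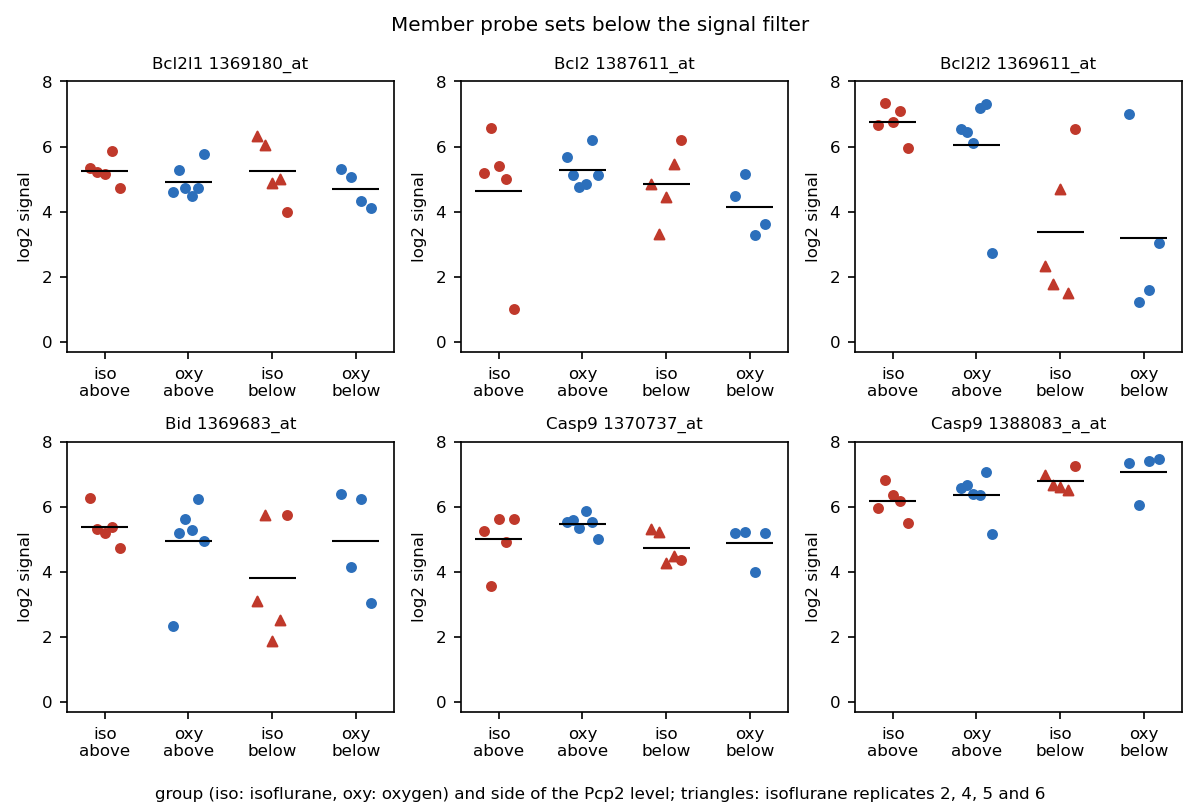
Log2 signal of the 6 member probe sets below the signal filter on all 20 arrays, by group (isoflurane left of oxygen) and array side, with 1 point per rat and a line at the mean; triangles are isoflurane replicates 2, 4, 5 and 6. Bcl2l2 1369611_at is near 2 on most Pcp2-low arrays and near 6.5 on most Pcp2-high arrays, while Bcl2 scatters widely in every group.

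Bak1, which forms the pores in the outer mitochondrial membrane together with Bax, had the largest isoflurane value among the tested members. It read 5.69, 6.23, 5.76, 6.04 and 7.60 after isoflurane and 7.44, 6.76, 7.66, 7.16, 6.58 and 6.80 after oxygen on Pcp2-high arrays. On that side 4 of the 5 isoflurane arrays lay below all oxygen arrays, and replicate 9 lay above all but 1. On Pcp2-low arrays the values were 7.16, 6.93, 6.76, 6.77 and 6.10 after isoflurane and 6.84, 7.01, 6.75 and 7.70 after oxygen, with the groups overlapping.

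The Bak1 change was -0.59 ± 0.23 (SE, 95% interval -1.07 to -0.12), and 8 of 10 isoflurane arrays read under the oxygen mean of their side. It did not pass over all 20 arrays (adjusted p = 0.106). It passed without isoflurane replicate 9 (-0.75, adjusted p = 0.0162), with array weights (-0.75, adjusted p = 0.0247) and with the 3'/5' ratio as a covariate (-0.70, adjusted p = 0.0353). Without the 4 arrays it was -0.84 (adjusted p = 0.185). It was -0.80 on Pcp2-high arrays and -0.33 on Pcp2-low arrays, and the difference of these was -0.47 ± 0.46 (SE, adjusted p = 0.531). Between the array sides Bak1 differed by -0.25 ± 0.23 (95% interval -0.73 to 0.23), which did not pass. With array weights that difference was -0.51 and passed (adjusted p = 0.0388). Its sign changed without the 4 arrays (0.03, adjusted p = 0.931) and with the 3'/5' ratio as a covariate (0.23, adjusted p = 0.489).

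**Figure D3:**
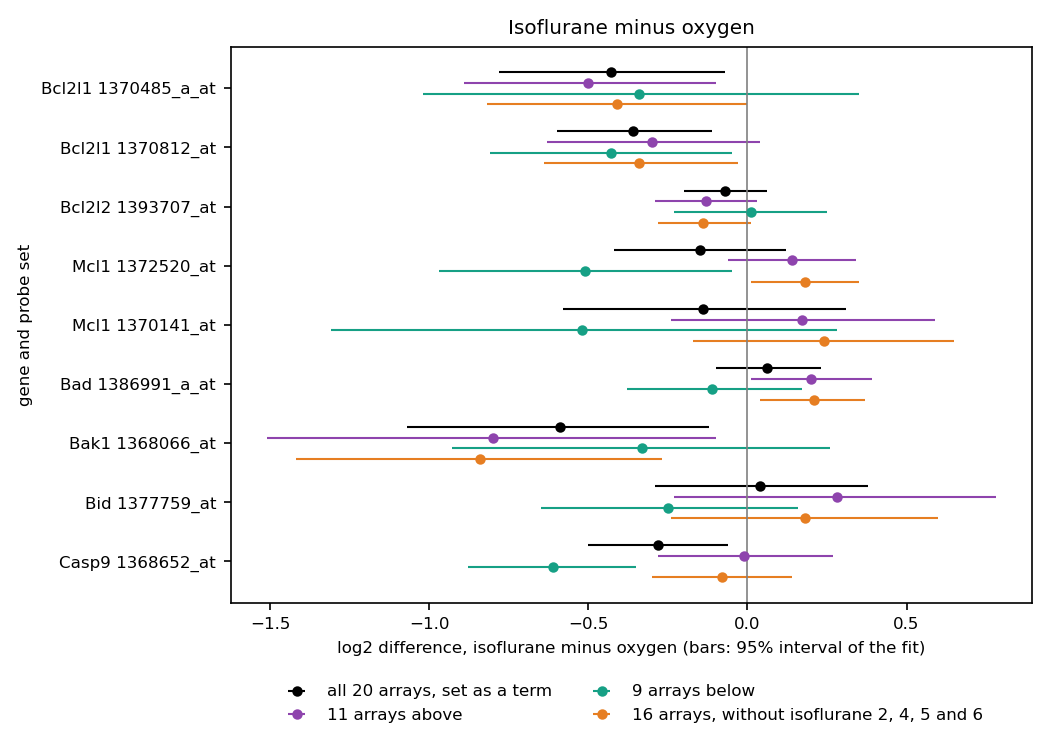
Isoflurane minus oxygen on the log2 scale for the 9 tested member probe sets, with 95% intervals, over all 20 arrays with the array side as a term, on each array side alone and on 16 arrays without isoflurane replicates 2, 4, 5 and 6. The point values of both Bcl2l1 probe sets and Bak1 lie below zero on each side. The interval crosses zero on Pcp2-high arrays for the brighter Bcl2l1 probe set, and on Pcp2-low arrays for the dimmer and for Bak1. The Casp9 interval on Pcp2-low arrays alone runs from -0.88 to -0.35.

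Bad, a BH3-only protein that binds Bcl2l1 and is silenced by Akt phosphorylation, had 1 probe set, 1386991_a_at. On Pcp2-high arrays it read 9.96, 9.84, 9.77, 9.70 and 9.89 after isoflurane and 9.71, 9.69, 9.72, 9.71, 9.41 and 9.52 after oxygen. On Pcp2-low arrays the values were 9.75, 9.71, 9.74, 9.92 and 10.18 after isoflurane and 9.88, 9.97, 9.83 and 10.19 after oxygen. All 5 isoflurane arrays were above the oxygen mean on the Pcp2-high side, against 1 of 5 on the Pcp2-low side. The isoflurane change over all arrays was 0.06 ± 0.08 (95% interval -0.10 to 0.23, adjusted p = 0.632), and it was 0.21 without the 4 arrays (adjusted p = 0.223). Bad was lower on Pcp2-high arrays by a value just short of the threshold, -0.18 ± 0.08 (SE, adjusted p = 0.0533). That difference was -0.34 and passed without the 4 arrays (adjusted p = 0.00168), and leaving out isoflurane replicate 1, 2, 4, 5 or 9 alone also brought it past the threshold.

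Bid, the BH3-only protein that caspase-8 cleaves to link death receptors to mitochondria, was lower on Pcp2-high arrays. Probe set 1377759_at read 7.43, 7.29, 6.56, 6.99 and 6.99 after isoflurane and 6.37, 7.31, 6.80, 6.15, 6.88 and 7.15 after oxygen there. On Pcp2-low arrays the signals were 7.39, 7.45, 7.57, 7.30 and 7.55 after isoflurane and 7.26, 8.10, 7.64 and 7.78 after oxygen. All 11 Pcp2-high arrays were below the Pcp2-low mean, though the ranges overlapped. The difference was -0.65 ± 0.16 (SE, adjusted p = 0.00164), or 1.57-fold lower, and -0.81 (adjusted p = 0.00346) without the 4 arrays.

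The isoflurane change of Bid was 0.04 ± 0.16 (95% interval -0.29 to 0.38). It was 0.28 on Pcp2-high arrays and -0.25 on Pcp2-low arrays, and neither passed. The other Bid probe set, 1369683_at, lay below the filter and ran from 1.88 to 6.27 after isoflurane and from 2.35 to 6.38 after oxygen. With no filter its difference between the sides was 0.79 ± 0.60 (SE, adjusted p = 0.308), so the sign was opposite to that of 1377759_at and its error was large.

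Casp9, the initiator caspase of the apoptosome, was lower on Pcp2-high arrays, and it was the only member with a called isoflurane difference on 1 array side. Probe set 1368652_at read 8.05, 8.08, 8.37, 8.13 and 8.46 after isoflurane and 8.27, 8.00, 8.01, 8.27, 8.50 and 8.31 after oxygen on Pcp2-high arrays. On Pcp2-low arrays it read 8.58, 8.53, 8.52, 8.45 and 8.88 after isoflurane and 9.13, 9.17, 9.14 and 9.38 after oxygen. Isoflurane and oxygen values were thus intermixed on the Pcp2-high side and did not overlap on the Pcp2-low side, where all 5 isoflurane arrays were lower. Of all tested probe sets, 6.52% were lower without overlap on the Pcp2-low side.

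Between the array sides Casp9 differed by -0.67 ± 0.11 (SE, adjusted p = 1.77e-05), or 1.59-fold, with all 11 Pcp2-high arrays below the Pcp2-low mean. Without the 4 arrays the difference was -0.90 (adjusted p = 2.54e-06). Those 4 arrays hold the 4 lowest Pcp2-low values. With the 3'/5' covariate it was -0.86 (adjusted p = 1.06e-05).

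Over all 20 arrays the isoflurane change of Casp9 was -0.28 ± 0.11 (SE, 95% interval -0.50 to -0.06, adjusted p = 0.104), and 8 of 10 isoflurane arrays read under the oxygen mean of their side. It passed without isoflurane replicate 9 (-0.33, adjusted p = 0.0379), and it was -0.08 (adjusted p = 0.725) without the 4 arrays. On Pcp2-low arrays alone Casp9 fell by 0.61 ± 0.12 (SE, adjusted p = 0.0111), or 1.53-fold, where 18.6% of all tested probe sets passed. On Pcp2-high arrays alone it was -0.01 ± 0.13 (95% interval -0.28 to 0.27), where 0% of all tested probe sets passed in limma and 2376 had an unadjusted p under 0.05.

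The test of that difference between the sides gave 0.61 ± 0.17 (SE, adjusted p = 0.0311), where 10.2% of all tested probe sets passed, and Casp9 was the only member to pass it. The call did not hold without the 4 arrays (0.32, adjusted p = 1), where 0.0698% of tested probe sets passed, nor with the 3'/5' covariate (0.51, adjusted p = 0.161). It was also lost, with values of 0.55 to 0.62 and adjusted p of 0.0504 to 0.0752, when any one of oxygen replicates 2, 4, 6 and 7 or isoflurane replicates 2, 4, 5, 6 and 7 was left out. Isoflurane replicate 10, whose cerebellar sum and 3'/5' ratio were unlike those of the 4, read 8.88 and was also below all 4 oxygen arrays. The part of the cerebellar sum and of the 3'/5' ratio in the Casp9 values was not tested beyond these fits.

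**Figure D4:**
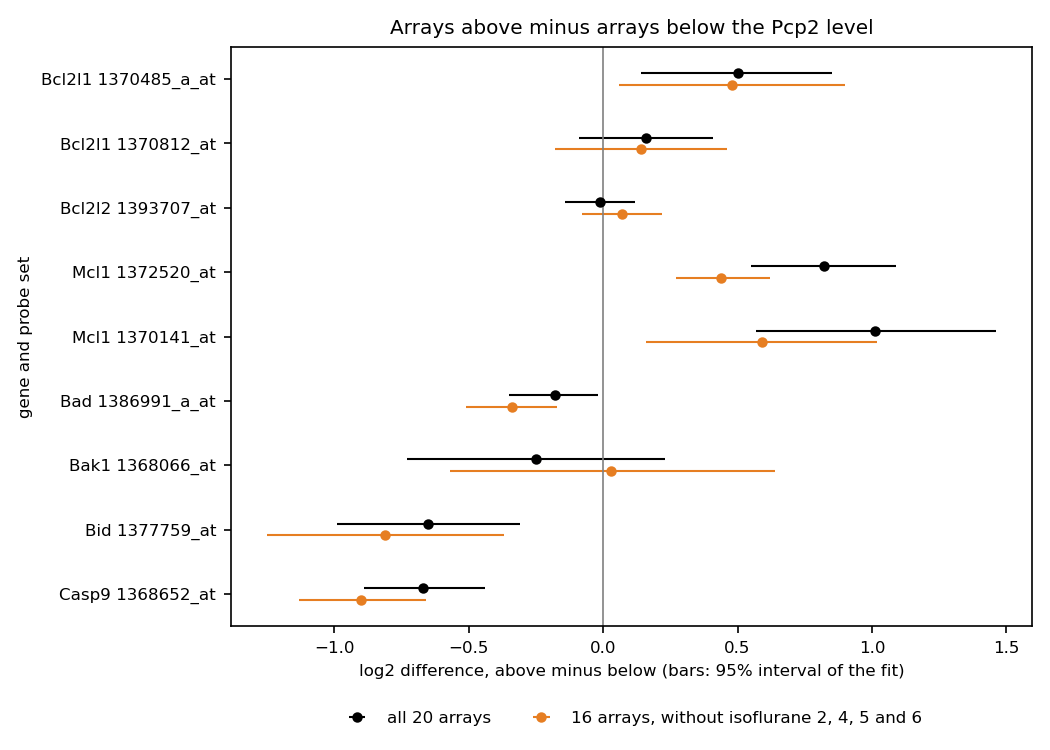
Pcp2-high minus Pcp2-low arrays on the log2 scale for the 9 tested member probe sets, with 95% intervals, over all 20 arrays and over 16 arrays without isoflurane replicates 2, 4, 5 and 6. Mcl1 lies above zero and Casp9 and Bid below it in both fits, with Mcl1 nearer zero and Casp9 farther from zero without the 4 arrays.

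As Casp9 carries the 1 call on isoflurane among the members, the sequence ahead of its start is shown next to its values. It is RefSeq's 250 bases before the annotated start in GRCr8, chr5:159391824-159392073 on the plus strand, again with GGGCGG on either strand in capitals.
Casp9: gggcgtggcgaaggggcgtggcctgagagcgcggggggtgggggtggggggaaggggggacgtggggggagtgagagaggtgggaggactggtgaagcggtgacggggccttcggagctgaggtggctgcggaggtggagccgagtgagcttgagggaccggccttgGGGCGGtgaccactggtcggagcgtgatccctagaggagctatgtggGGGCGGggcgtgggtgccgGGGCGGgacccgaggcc
The GC box was found 3 times, at 83, 36 and 17 bases before the start, compared with 1 match in the Mcl1 window shown above. The Casp9 window held none of the other 4 motifs either. A match is a description of these letters only.

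The 2 other Casp9 probe sets lay below the filter. Probe set 1388083_a_at ran from 5.50 to 7.24 after isoflurane and from 5.17 to 7.46 after oxygen. With no filter its difference between the sides was -0.66 ± 0.24 (SE, adjusted p = 0.0264), nearly the value of 1368652_at. Probe set 1370737_at differed by 0.42 ± 0.28 (SE, adjusted p = 0.229), which has the opposite sign and did not pass. For isoflurane, all 3 Casp9 probe sets had values below zero, at -0.28 for 1368652_at, -0.23 for 1388083_a_at and -0.34 for 1370737_at, and none passed with no filter. The 2 dimmer probe sets did not repeat the difference in isoflurane change between the array sides. With no filter that difference was 0.61 ± 0.18 (SE) at 1368652_at, 0.05 ± 0.48 at 1388083_a_at and -0.31 ± 0.56 at 1370737_at.

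Agreement between probe sets of a gene was also read array by array, within each array side and over both groups. For Mcl1, Pearson's r between its 2 probe sets was 0.77 over the 11 Pcp2-high arrays (permutation p = 0.00722, Spearman's rho 0.58 with permutation p = 0.0654). Over the 9 Pcp2-low arrays it was 0.75 (exact permutation p = 0.0219, rho 0.72 with exact permutation p = 0.0369). Leaving out the 2 arrays farthest from the median gave an r of 0.72 on the Pcp2-high side and 0.65 on the Pcp2-low side, which holds the 4 arrays that stood apart. For Bcl2l1 1370812_at and 1370485_a_at, r was 0.68 over Pcp2-high arrays (permutation p = 0.0208, rho 0.63 with permutation p = 0.0438) and 0.35 over Pcp2-low arrays (exact permutation p = 0.348, rho 0.22 with exact permutation p = 0.581). Without the 2 farthest arrays these r were 0.51 and 0.12. After adjustment over all 36 correlations of the 9 pairs, none passed, and the lowest adjusted p was 0.198.

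In the pairs with a probe set below the filter, r ran from -0.57 to 0.45. Bcl2l1 1370485_a_at and 1369180_at had r of -0.57 on Pcp2-high arrays and 0.07 on Pcp2-low arrays, and 1370812_at and 1369180_at had -0.32 and -0.28. For Bcl2l2 the values were -0.48 and 0.06, and for Bid 0.45 and -0.10. Casp9 1368652_at and 1388083_a_at gave -0.16 and 0.44, 1368652_at and 1370737_at gave 0.36 and 0.16, and the 2 dimmer Casp9 probe sets gave -0.10 and -0.15. Only the Mcl1 pair thus had r above 0.7 on both sides.

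**Figure D5:**
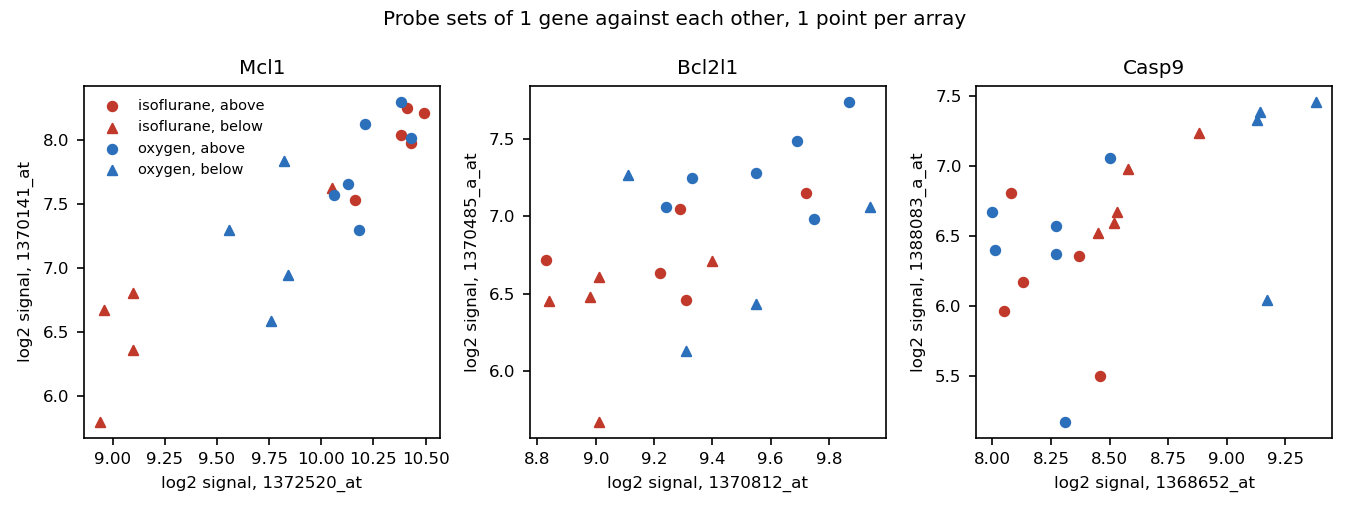
Log2 signal of 1 probe set of a gene against another of the same gene, 1 point per array, with isoflurane in red, oxygen in blue, circles for Pcp2-high (above) and triangles for Pcp2-low (below) arrays, for Mcl1, Bcl2l1 and Casp9. The Mcl1 points run along 1 rising band on both sides (r of 0.77 and 0.75), whereas the Casp9 pair, with 1 probe set below the filter, scatters (r of -0.16 and 0.44).

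The genes whose log2 signal followed each member most closely were sought among 10250 other genes, after centring each group within each array side over the 20 arrays. Mcl1 1372520_at was closest to Clcn4, a chloride-proton exchanger of endosomes, and to Pcp2, each with r of 0.93. Isoflurane replicate 10 carried much of both values. Without it, a setting chosen after seeing the data, r was 0.72 for Mcl1 and Clcn4 and 0.60 for Mcl1 and Pcp2. Bak1 was closest to the polarity kinase Mark2 (r = 0.95) and to Fstl4 (0.91). Bcl2l1 was closest to Tsc22d4 (0.85) and Atf5 (0.84), a transcription factor of stress responses. Casp9 was closest to Reep6 (0.83) and Fbxo44 (0.81), Bad to Cln8 (0.85) and Akap12 (0.81), Bcl2l2 to Frmd6 (0.76) and Tcf20 (0.75), and Bid to Nhlrc3 (0.68) and Mt2A (0.66). Without isoflurane replicate 10, the r of Bad with Cln8 was 0.75 and that of Bad with Akap12 was 0.70. These are the highest of many correlations over arrays that share scaling and RNA quality, and are given as a description.

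Other genes of the pathway were read from 5 lists of 62 genes in all, of which 53 had a probe set of their own and 37 were tested. After isoflurane 3 of the 37 were lower and none higher in limma, where 4.79% of all tested probe sets were lower and 2.58% higher. The 3 were Akt1, Huwe1 and Dffa. On Pcp2-low arrays alone 3 passed in each direction, where 18.6% of all tested probe sets passed. Without the 4 arrays none of the 37 passed in limma, nor did any other probe set. The counts between array sides in the 5 lists below stand beside 36.0% higher and 24.8% lower on Pcp2-high arrays over all tested probe sets.

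Akt1, the kinase that phosphorylates Bad, fell by 0.53 ± 0.11 (SE, adjusted p = 0.0132). On 9 of the 10 isoflurane arrays it read under the oxygen mean of their side. Its values were 10.66 to 11.17 after isoflurane and 10.79 to 11.56 after oxygen on Pcp2-high arrays. On Pcp2-low arrays they were 10.60 to 11.22 after isoflurane and 11.51 to 11.69 after oxygen, with no overlap there. Of all tested probe sets, 6.52% were likewise lower without overlap on that side. Without the 4 arrays the Akt1 change was -0.30 (adjusted p = 0.205). Huwe1, the ubiquitin ligase known as Mule that marks Mcl1 for degradation, fell by 0.27 ± 0.06 (SE, adjusted p = 0.0194, 9 of 10 arrays), and the value was -0.22 (adjusted p = 0.216) without the 4 arrays. Akt1 and Huwe1 each had 2 tested probe sets, of which only the brightest is given here. Dffa, the inhibitor of the caspase-activated DNase, fell by 0.26 ± 0.08 (SE, adjusted p = 0.0495, 10 of 10 arrays). The Dffa call was lost when any one of oxygen replicates 1, 2, 3, 5, 7, 8 and 10 or isoflurane replicates 1 to 8 was left out.

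Of the other Bcl2 family genes, 6 of 13 were tested and none passed for isoflurane. The lowest p was that of the neuronal BH3-only gene Hrk, at -0.22 ± 0.14 (SE, adjusted p = 0.301). Between the array sides 2 were higher and 1 lower on Pcp2-high arrays. Bbc3 (Puma), a BH3-only target of p53, was higher by 0.43 ± 0.08 (SE, adjusted p = 0.000165), and Bnip3, which acts in mitophagy, was lower at -0.37 ± 0.07 (adjusted p = 0.000105). Bcl2l11 (Bim) was at 0.26 ± 0.12 and did not pass (adjusted p = 0.0635), though it passed without the 4 arrays (0.43, adjusted p = 0.0124) and without any one of oxygen replicate 1 and isoflurane replicates 3, 4 and 6 (0.28 to 0.30).

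Among the other caspases, 3 of 9 were tested and none passed for isoflurane, the lowest p being that of Casp4 at 0.26 ± 0.14 (SE, adjusted p = 0.231). Casp4, an inflammatory caspase that senses bacterial lipopolysaccharide, differed more between the array sides than any tested member. It ran from 9.46 to 9.86 after isoflurane and from 8.66 to 9.50 after oxygen on Pcp2-high arrays. On Pcp2-low arrays it ran from 6.50 to 7.33 after isoflurane and from 6.32 to 7.23 after oxygen. The sides were far apart and the difference was 2.57 ± 0.14 (SE, adjusted p = 1.62e-12). The summed linear signal of 5 microglial markers went the other way, at 1679 to 2880 on Pcp2-high arrays and 3300 to 5291 on Pcp2-low arrays. Their part in the Casp4 value was not tested. Casp2 was higher on Pcp2-high arrays by 0.72 ± 0.10 (adjusted p = 1.46e-06), and Casp1 was at -0.23 ± 0.13 (adjusted p = 0.118).

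Of the genes for mitochondrial release, the apoptosome, caspase inhibitors and effectors, 12 of 17 were tested. For these, 6 were higher and 1 lower on Pcp2-high arrays. Birc2, an inhibitor of apoptosis that acts as a ubiquitin ligase, was higher by 1.20 ± 0.14 (SE, adjusted p = 2e-07), and the mitochondrial nuclease gene Endog by 1.02 ± 0.16 (adjusted p = 1.72e-05). The mitochondrial protease gene Htra2 was lower at -0.61 ± 0.07 (adjusted p = 2.76e-07). Xiap, the direct inhibitor of caspase-9, did not differ past the threshold between the sides (-0.27, adjusted p = 0.242), though it did without oxygen replicate 4 (-0.44, adjusted p = 0.034). For isoflurane Xiap was at 0.48 ± 0.20 over all arrays (adjusted p = 0.131). It rose by 0.86 on Pcp2-low arrays alone (adjusted p = 0.0254), where 18.6% of all tested probe sets passed, and by 0.60 without isoflurane replicate 9 (adjusted p = 0.0309). Without the 4 arrays it was 0.27 (adjusted p = 0.578).

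Of the regulators and partners of the members, 12 of 15 were tested, with 2 higher and 6 lower on Pcp2-high arrays. Itpr1, the calcium channel of the endoplasmic reticulum that Purkinje cells carry in abundance, was higher by 0.97 ± 0.08 (SE, adjusted p = 1.09e-09), and Bag1 by 0.34 ± 0.07 (adjusted p = 0.000237). The kinase gene Mapk8 (JNK1) was at -0.60 ± 0.07 (adjusted p = 4.03e-07) and Ppp3ca, the calcineurin subunit that dephosphorylates Bad, at -0.59 ± 0.09 (adjusted p = 1.8e-05).

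Of the death receptor genes, 4 of 8 were tested, and none passed for isoflurane, with Tnfrsf1a at -0.21 ± 0.12 (adjusted p = 0.259). Between the sides Tradd was higher on Pcp2-high arrays by 0.78 ± 0.12 (SE, adjusted p = 9.77e-06), and Cflar, which blocks caspase-8, was lower at -1.29 ± 0.13 (adjusted p = 1.41e-08). The kinase gene Ripk1 was higher by 0.38 ± 0.16 (adjusted p = 0.0393), a call lost without isoflurane replicate 9 or 10 or any one of oxygen replicates 1 to 8.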

How the data were processed

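Biotin-labelled cRNA of each rat was hybridised to 1 Affymetrix array. The authors deposited linear intensities, 1 per probe set. The submitters' processing notes name Affymetrix Expression Console and MAS5, with versions not given in the sources used here. On every array, the mean after trimming 2% from each end was 500.1 to 500.2, so differences are relative to the average signal of an array. Detection calls were not used here. The number of arrays limits the precision.

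A floor of 1 replaced 2079 lower values before log2 was taken. Probe sets above the 40th percentile of mean log2 signal were tested in R 4.3.3 using limma 3.58.1 (linear model with eBayes and an intensity trend, two-sided, Benjamini-Hochberg over all 18625, threshold 0.05). The model held group and array side, an interaction was tested in a second model, and each side was also fitted alone. The array side was set by the signal of the Pcp2 probe set alone. Genes of each pathway list are given by their brightest tested probe set. Correlations used permutation tests in scipy 1.17.1, exact for 9 arrays and with 100000 resamples for 11.

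The members, lists, array sides and tests were chosen with earlier results of these data known. Named were all members and, from each pathway list, the genes past the isoflurane threshold (up to 4, otherwise the lowest p) and the 2 with the largest difference between array sides in each direction. For each member the 2 most similar genes were named, leaving out genes known only by a locus name. Annotation came from the platform table, which names no genome build for the probe sets. Promoter sequences are RefSeq's for GRCr8, and 8 of the 9 genes matched. Alternatives were each array left out in turn, leaving out 4 isoflurane arrays, no array side, quantile normalization, median centring, pseudocounts of 16 and 64, no filter or the 60th percentile, eBayes without trend or robust, array weights, the 3'/5' ratio of control probe sets as a covariate and the replicate number as a block. The fits were tested on simulated data. Of the 62 pathway genes, 9 had no probe set of their own and were not analysed here.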

Additional observations from a re-analysis of the deposited data

Results flagged for a closer look

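Among 90 groups of arrays examined (15 member probe sets in 6 groups each), 11 held an array far from the rest, and chance alone marks about 1 in 20 groups. In Mcl1 1372520_at, isoflurane replicate 10 was high at 10.05, while the other isoflurane arrays on the Pcp2-low side ran from 8.94 to 9.10. In Bak1, isoflurane replicate 9 was high at 7.60, while the other isoflurane arrays on the Pcp2-high side ran from 5.69 to 6.23. In Bcl2l1 1370485_a_at, isoflurane replicate 5 was low at 5.67, both among the Pcp2-low isoflurane arrays (others 6.45 to 6.71) and among all isoflurane arrays (others 6.45 to 7.15).

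The other far values came from probe sets below the signal filter. Bcl2 read 1.02 on isoflurane replicate 9 (others 5.01 to 6.56). Bcl2l2 1369611_at read 2.75 on oxygen replicate 10 (others 6.11 to 7.31). Bid 1369683_at read 2.35 on oxygen replicate 5 (others 4.95 to 6.25). Casp9 1370737_at read 4.00 on oxygen replicate 3, both among the Pcp2-low oxygen arrays (others 5.18 to 5.22) and among all oxygen arrays. Casp9 1388083_a_at read 5.17 on oxygen replicate 10 (others 6.37 to 7.06) and 6.04 on oxygen replicate 2 (others 7.33 to 7.46).

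The interaction test of limma was passed by 10.2% of all tested probe sets. Among the genes named by rule, the isoflurane change differed between the array sides in that test for Casp9 and Ripk1. For Casp9 1368652_at it was -0.01 on Pcp2-high arrays and -0.61 on Pcp2-low arrays, a difference of 0.61 (adjusted p = 0.0311). For Ripk1, a kinase of the death receptor pathway, it was -0.25 on Pcp2-high arrays and 0.69 on Pcp2-low arrays, a difference of -0.94 (adjusted p = 0.0174). Without isoflurane replicates 2, 4, 5 and 6 the values were 0.32 for Casp9 and -0.56 for Ripk1. Replicate 10 is then the only isoflurane array on the Pcp2-low side, so that fit cannot decide either difference. Of the tested pathway genes, 2 more passed the limma interaction test and are named after their values were seen. They are Fbxw7 at -0.93 (adjusted p = 0.0138) and Tmbim6 at 0.53 (adjusted p = 0.0155), both given over all 20 arrays only.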

How the results depend on the processing

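The count of members past the isoflurane threshold, 0 of 9, was 1 on the Pcp2-low arrays alone (Casp9), 1 after quantile normalization, 2 with array weights and 1 with the 3'/5' ratio as a covariate, and it ran from 0 to 3 with each array left out in turn. It was 3 without isoflurane replicate 9 (Bak1, Casp9 1368652_at and Bcl2l1 1370812_at) and 1 without oxygen replicate 6. Over all tested probe sets the isoflurane share, 7.37%, was 15.8% without isoflurane replicate 9 and 10.1% with array weights. The interaction share, 10.2%, was 20.9% after median centring, 31.2% with array weights, 23.1% without isoflurane replicate 10 and 0.558% with the 3'/5' covariate. The count between array sides, 5 of 9, was 2 with the 60th percentile filter, which left only 5 members to test. It was 2 with the replicate block, 4 with the 3'/5' covariate (1 higher and 3 lower on Pcp2-high arrays) and 5 to 6 with each array left out. With no filter it was 7 of 15, where 43.7% of all probe sets passed. The interaction count, 1 of 9, was 0 with the 3'/5' covariate, 0 with the replicate block, 2 with array weights, 3 after median centring, and 0 to 3 with each array left out. No interaction count is given without the 4 isoflurane arrays. Replicate 10 is then the only isoflurane array on the Pcp2-low side. Median centring moved the median interaction of all probe sets to 0.25, and the cause of the other shifts was not tested. No called member value changed sign. Uncalled values did so in 14 of 311 isoflurane fits, 10 of 284 fits between sides and 11 of 284 interaction fits.

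Replicate numbers did not pair the rats. Residuals of arrays with the same number correlated at -0.26 to 0.23, above 0.1 in 2 of 10 pairs, and 1 of 10 numbers correlated best with itself. The replicate block gave 29 isoflurane calls over all probe sets, against 1372 without it. In the replicate block 0 members passed for isoflurane.

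No detection calls were used, so for the 6 probe sets below the filter signal near background cannot be told from absence of the transcript. The array side and the tissue taken cannot be told apart. The 4 isoflurane arrays carry a high 3'/5' ratio of the actin control, not of the Gapdh control, together with their group.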
